A study of Mus musculus with 12 samples.

Results

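Cultured keratinocytes from newborn mice were set against whole skin from mice aged 30 days on 10 Affymetrix arrays, chosen by their titles from the 12 arrays of the series. Each array measured the RNA of 1 sample. The first side held all 5 primary keratinocyte cultures, each made from the pooled cells of 5 newborn mice, kept without passage in low-calcium medium for no more than 3 days. Cultures 1 and 2 came from a mixed C57, DBA and FVB background and cultures 3 to 5 from FVB mice. The second side held 5 samples of 30-day skin, all of the mixed background. The labels name no transgene, deletion or drug in any of these samples, and they do not state whether each skin sample is a separate animal. The p-values therefore refer to the spread among arrays, which may be technical. Newborn against 30-day origin, culture against tissue, and cells labelled keratinocytes against the mixed cells of skin all change together between the sides. These differences cannot be told apart. Strain coincides with the sides in part.

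The epidermis is a stratified epithelium renewed from a basal layer of keratinocytes, which hold to the basement membrane through integrins and hemidesmosomes and carry the keratins Krt5 and Krt14. Cells that leave this layer switch to Krt1 and Krt10, build junctions and a cornified envelope, and are shed. Low calcium in the medium holds cultured keratinocytes back from this switch, and cells that are taken from the tissue and plated pass into a state that shares genes with the edge of a wound. Whole skin also holds hair follicles, sebaceous glands, dermis, fat, a thin muscle sheet, vessels, nerves, pigment cells and immune cells.

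Values are log2 expression after RMA, so a difference of 1 is a 2-fold difference, and a difference is always culture minus skin. In 1 probe set per gene, 12393 genes were tested, and a gene was called at an adjusted p under 0.05. Cultures and skin separated along the first principal component, with 83.7% of the variance, and the second held 5.91% and separated the mixed-strain from the FVB cultures. The median SD over genes was 0.169 in the cultures and 0.155 in skin. Skin replicate 1 stood apart: the gap between its 3' and 5' actin probe sets was 1.74, against 0.67 to 0.82 in the other skin arrays and 0.21 to 0.74 in the cultures, and its 18S ribosomal RNA signal was 8.16 against 5.30 to 6.35 in the other 9 arrays. Cultures 1 and 2, skin arrays 2 and 3, and skin arrays 4 and 5 were closer to each other than other pairs of their group, with an SD of differences of 44.7%, 55.5% and 58.8% of the group's median pair. They were kept as separate samples, since nothing in the labels joins them, and a fit that averaged each of these pairs called 2742 genes higher and 2196 lower.

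Of the 12393 genes, 5835 (47.1%) were called, 3206 (25.9%) higher and 2629 (21.2%) lower in culture. The median difference over all genes was 0.02. The largest changes ran downwards: 97 genes (0.783%) were called and at least 16-fold lower in culture, against 8 (0.0646%) at least 16-fold higher. At 2-fold or more, 938 genes (7.57%) were lower and 588 (4.74%) higher. All 5 cultures lay above all 5 skin arrays for 2472 genes (19.9%) and below them for 2078 (16.8%). The split between higher and lower calls rested on the centring of the arrays. Higher genes made up 54.9% of the calls with the deposited values, 70.8% when each array was centred on its median, which moved the median gene by 0.148, and 65.2% when arrays were centred on the list of epithelial junction genes, which moved it by 0.099. The junction list is not a fixed reference, since 12 of its 23 members were themselves called higher and 6 lower.

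Gene lists for skin structures, cell types and processes, 44 in all with 1230 measured genes, were used to read these changes. Of the 97 genes at least 16-fold lower, 73 belonged to a list, among them 37 hair shaft and inner root sheath genes, 14 skeletal muscle genes, 7 fibroblast and collagen genes and 4 adipocyte genes. The lists hold 1230 of the 12393 genes tested. They were written with earlier results of these data known, so this overlap is a description and no test. Each list is given below by its counts, to be read against the 25.9% of all genes called higher and 21.2% called lower, and by its median difference, to be read against 0.02. Fewer cells of a type and less RNA per cell cannot be told apart in these bulk samples.

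**Figure D1:**
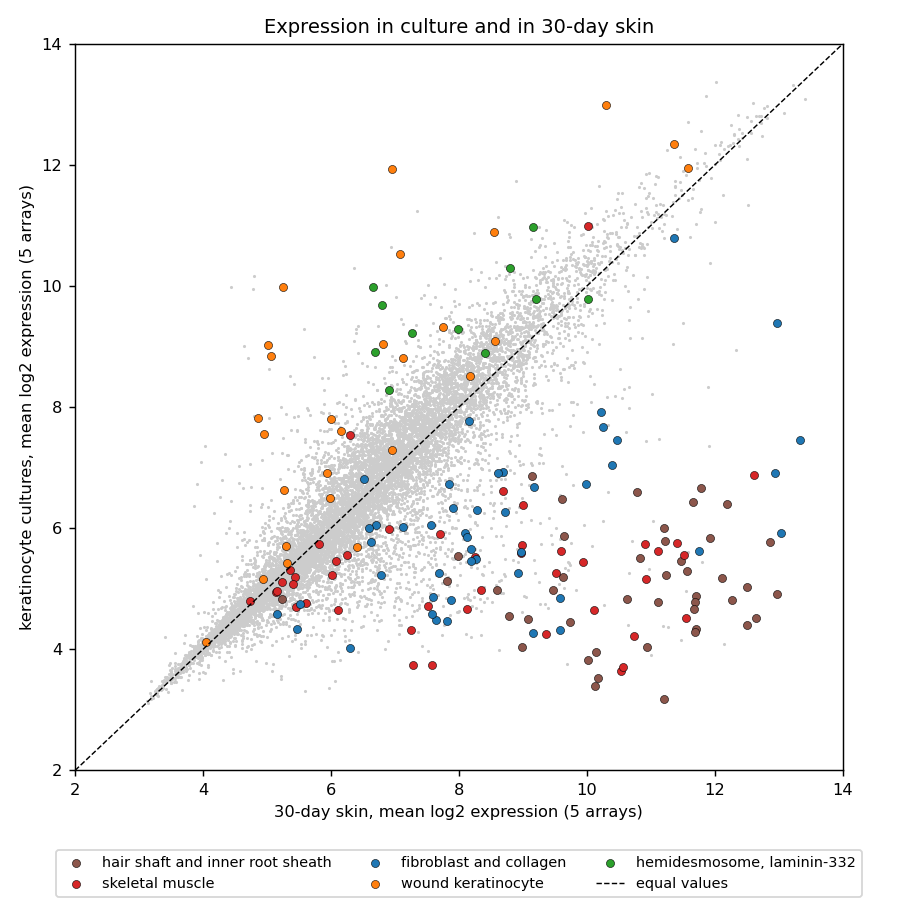
Mean log2 expression of each of the 12393 genes in 30-day skin (horizontal axis) and in the keratinocyte cultures (vertical axis), 5 arrays a side, with members of 5 gene lists in colour and the line of equal values. Hair shaft, skeletal muscle and fibroblast genes lie far below the line, and the wound-associated and hemidesmosome genes lie mostly above it.

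The cultures were checked first against the markers of their labelled cell type. Krt5, the basal type II keratin, measured 13.02, 13.11, 13.06, 13.13 and 13.38 in the cultures and 11.72, 12.09, 11.99, 11.76 and 11.73 in skin, and its type I partner Krt14 measured 13.25, 13.29, 13.44, 13.44 and 13.44 in the cultures and 11.81, 12.10, 12.15, 11.96 and 12.04 in skin. Every culture lay above every skin array for both. Krt5 rose by 1.28 ± 0.10 (SE, adjusted p = 2.58e-07, limma) and Krt14 by 1.36 ± 0.09 (SE, adjusted p = 3.23e-08, limma). The adhesion genes Cdh1, which encodes E-cadherin, and Epcam rose by 0.95 ± 0.13 (SE, adjusted p = 3.53e-05, limma) and 0.97 ± 0.23 (SE, adjusted p = 0.00315, limma), the latter not in the mixed-strain cultures alone (0.51, adjusted p = 0.152, limma). Sfn, the 14-3-3 sigma protein of stratified epithelia, rose by 0.99.

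Epidermal transcription factors did not follow the keratins as a group. Trp63, the regulator of epithelial stratification, was at 8.47, 8.16, 9.19, 8.99 and 8.86 in the cultures and 8.96, 9.28, 9.21, 8.90 and 8.82 in skin, which overlapped, and its difference of -0.30 ± 0.18 (SE, adjusted p = 0.183, limma) missed the threshold. Krt15, a keratin of basal cells and of the follicle bulge, measured 5.58, 5.52, 5.93, 5.81 and 6.08 in the cultures and 11.07, 10.87, 10.95, 10.30 and 10.31 in skin. The groups were far apart, and Krt15 fell by 4.92 ± 0.17 (SE, adjusted p = 6.64e-11, limma). Elf5 (-2.65), Grhl1 (-1.15), Ovol1 (-1.12) and Tfap2c (-0.77), all epithelial transcription factors, fell, and Ehf, of the Ets family, rose by 1.22. Of the 23 measured genes of the pan-epidermal list, 10 rose and 8 fell, with a median difference of 0.21. This balance was not the same in both kinds of culture. Set against the same skin, the mixed-strain cultures alone gave 7 higher and 10 lower, and the FVB cultures alone 12 higher and 8 lower.

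Genes of the hemidesmosome and of laminin-332, the ligand that anchors basal cells, were higher in culture. Of 11 measured members 9 rose and the other 2 missed the threshold, with a median difference of 1.49. Lama3, the alpha chain of laminin-332, measured 9.67, 9.89, 9.94, 10.08 and 10.32 in the cultures and 6.80, 6.75, 6.54, 6.60 and 6.60 in skin. It was higher in every culture than in any skin array and rose by 3.32 ± 0.11 (SE, adjusted p = 7.62e-11, limma), and the beta chain Lamb3 rose by 2.89. Col7a1, the collagen of anchoring fibrils, rose by 2.21, the integrin beta-4 gene Itgb4 by 1.96 and Col17a1, a transmembrane collagen of the hemidesmosome, by 1.82. Itga6, the integrin partner of Itgb4, differed by 0.48 ± 0.21 (SE, adjusted p = 0.0805, limma), and Plec, the plakin that links hemidesmosomes to keratin, by -0.23, and neither passed the threshold.

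Hair shaft and inner root sheath genes showed the largest differences of the comparison. All 44 measured members fell, with a median difference of -6.01, and the mean over the list ranged from 5.01 to 5.08 in the cultures and 10.12 to 11.23 in skin. In the cultures 38 of the 44 averaged below the array median. Krt25, a keratin of the inner root sheath, measured 4.12, 4.20, 4.46, 4.59 and 4.59 in the cultures and 12.39, 12.70, 12.42, 12.45 and 12.56 in skin. Every skin array was near the top of the scale and every culture near the bottom, and Krt25 fell by 8.11 ± 0.11 (SE, adjusted p = 1.82e-14, limma).

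Krt33a, a hair shaft keratin, fell by 8.14 ± 0.18 (SE, adjusted p = 1.11e-12, limma). The inner root sheath keratins Krt27 (-7.47) and Krt71 (-7.09) fell, as did the hair shaft keratins Krt31 (-6.93) and Krt86 (-6.91), the keratin-associated proteins Krtap8-1 (-8.05), Krtap16-3 (-8.03), Krtap15 (-7.47), Krtap14 (-7.40), Krtap6-5 (-7.38) and Krtap1-5 (-7.01), and Tchh (-5.45), the trichohyalin of the sheath and the medulla. Keratin-associated proteins are encoded by families of near-identical genes, so probe sets may share signal and single members are uncertain.

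The promoters of these genes were searched for the letters of a TATA box. In the RefSeq promoter windows of GRCm38.p6, which reach from upstream of the gene start to just past it, the letters TATAAA on either strand were in 29 of the 41 windows found for 38 of the 44 genes (70.7%), against 9.81% of the windows of all measured genes. The stretches of 61 bases before the starts of the 4 members with the largest fall that hold the letters are shown because they make this shared feature visible, with the match in capitals. They lie at chr11:99322952-99323012 on the minus strand for Krt25, chr16:89487953-89488013 on the minus strand for Krtap8-1, chr16:88962874-88962934 on the minus strand for Krtap16-3 and chr11:99351119-99351179 on the minus strand for Krt27.
Krt25: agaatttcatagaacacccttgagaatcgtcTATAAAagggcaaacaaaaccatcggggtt
Krtap8-1: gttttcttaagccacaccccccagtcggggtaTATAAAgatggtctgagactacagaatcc
Krtap16-3: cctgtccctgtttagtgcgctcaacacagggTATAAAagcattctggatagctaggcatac
Krt27: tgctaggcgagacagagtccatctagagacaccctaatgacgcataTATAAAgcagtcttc
The match starts 30 bases before the gene start in Krt25 and Krtap16-3, 29 in Krtap8-1 and 15 in Krt27. A match is a description of the letters and shows no binding.

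Among the regulators and stem cell markers of the follicle, 33 of 49 measured members fell and 5 rose, with a median difference of -1.14. Cd34, a marker of bulge stem cells and of vessels, fell by 3.86 ± 0.10 (SE, adjusted p = 6.79e-12, limma). Hoxc13, the homeobox factor of hair keratin genes, fell by 3.74 ± 0.16 (SE, adjusted p = 7.09e-10, limma), and Dlx3, a homeobox factor of follicle and epidermis, fell by 3.51 ± 0.16 (SE, adjusted p = 9.74e-10, limma). Bmp2, a secreted signal of the follicle, fell by 2.20 ± 0.13 (SE, adjusted p = 1.85e-08, limma). The members that rose included Fst (3.71), Wnt10a (1.29), Sox9 (0.84) and Dkk3 (0.60). Fst encodes follistatin, which binds activins, and measured 10.52, 10.57, 10.70, 10.83 and 10.64 in the cultures and 7.73, 6.89, 6.97, 6.46 and 6.67 in skin. All 5 cultures were above all 5 skin arrays. Several members, Fst and Bmp2 among them, are also expressed outside follicles. With the mixed-strain cultures alone 3 members rose and Sox9 missed the threshold (0.40, adjusted p = 0.138, limma).

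Fibroblast and matrix genes were lower in culture almost throughout. Of 46 measured members 44 fell and the other 2 missed the threshold, with a median of -2.47. Col3a1, the chain of collagen III, measured 6.43, 6.51, 5.56, 5.51 and 5.59 in the cultures and 13.45, 13.11, 12.90, 12.88 and 12.80 in skin. Every skin array exceeded every culture, and Col3a1 fell by 7.11 ± 0.21 (SE, adjusted p = 1.64e-11, limma). The collagen I chain Col1a1 fell by 6.03 ± 0.17 (SE, adjusted p = 1.28e-11, limma) and its partner Col1a2 fell by 5.88 ± 0.28 (SE, adjusted p = 1.57e-09, limma), and the proteoglycans Dcn (-6.13) and Lum (-5.26) fell as well.

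The cultures were not equal in these markers. The list mean was 6.30 in the mixed-strain cultures and 5.86 in the FVB cultures, and Col3a1 was higher in the mixed-strain cultures by 0.92 ± 0.17 (SE, adjusted p = 0.00462, limma). Vim, the vimentin of mesenchymal and immune cells, measured 9.54, 9.37, 8.08, 7.95 and 8.23 in the cultures and 10.49, 10.59, 10.71, 10.31 and 10.53 in skin and fell by 1.89 ± 0.28 (SE, adjusted p = 8.23e-05, limma). The mixed-strain cultures were the highest of the 5 for Vim, above the FVB cultures by 1.37 ± 0.14 (SE, adjusted p = 6.56e-05, limma), and all cultures stayed below skin. S100a4 and Col12a1 missed the threshold, at -0.39 and 0.30.

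Skeletal muscle genes, which in mouse skin come from the thin sheet under the dermis, fell in 35 of 44 measured members and rose in 2, with a median of -2.86. Acta1, skeletal actin, measured 7.49, 7.45, 6.56, 6.30 and 6.61 in the cultures and 12.66, 12.92, 12.87, 12.41 and 12.19 in skin and fell by 5.73 ± 0.23 (SE, adjusted p = 3.45e-10, limma). The cultures lay far below skin, and the fast-fibre genes moved furthest, with Tnnc2 (-7.04), Myh1 (-6.89), Myl1 (-6.86), Myh4 (-6.53) and Atp2a1 (-5.96). Fbxo32, a ubiquitin ligase known from muscle wasting, rose by 1.25. Tpm2, a tropomyosin also found in non-muscle cells, was higher by 0.97 in its brightest probe set and lower in the one of largest variance (-2.53, adjusted p = 1.17e-06, limma). In the cultures 39 of the 44 averaged below the array median.

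Fat genes were lower as well. Of 23 adipocyte genes 18 fell and 1 rose, with a median of -1.45. Car3, a carbonic anhydrase abundant in fat, fell by 8.06 ± 0.18 (SE, adjusted p = 1.11e-12, limma), and Fabp4, a fatty acid carrier, fell by 7.10 ± 0.23 (SE, adjusted p = 3.33e-11, limma). Adipoq, the hormone adiponectin, measured 3.83, 3.73, 3.86, 3.58 and 3.75 in the cultures and 10.22, 9.93, 9.998, 9.09 and 9.22 in skin. The groups were widely separated and Adipoq fell by 5.94 ± 0.19 (SE, adjusted p = 4.00e-11, limma). Of the 11 brown fat genes 8 fell, led by Elovl3 (-3.36), Pdk4 (-3.36) and Cox8b (-2.05), while Ucp1, the defining uncoupling protein, differed by -0.01 ± 0.09 (SE, adjusted p = 0.926, limma) and averaged 5.25 in skin and 5.23 in culture. In the cultures 10 of the 11 averaged below the array median. Without the dimmest 40% of genes, dim list members included, 3 brown fat genes were called lower.

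Sebaceous gland lipid genes fell in 16 of 21 measured members and rose in 2, with a median of -1.19. The fatty acid elongase Elovl3 fell by 3.36 ± 0.28 (SE, adjusted p = 3.86e-07, limma) and its relative Elovl6 fell by 3.28 ± 0.21 (SE, adjusted p = 3.12e-08, limma). Krt79, a keratin of the sebaceous duct, fell by 2.68 ± 0.19 (SE, adjusted p = 1.05e-07, limma). Plin2, which coats lipid droplets in many cell types, rose by 1.17 ± 0.11 (SE, adjusted p = 1.11e-06, limma). Elovl3 and Cidea are members of both the sebaceous and the brown fat list.

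Vessel genes were lower with smaller differences. Of 29 endothelial genes 23 fell and 1 rose, with a median of -0.88. Pecam1, the endothelial adhesion molecule, measured 5.15, 5.16, 5.03, 4.78 and 5.01 in the cultures and 5.54, 5.82, 6.07, 6.25 and 6.11 in skin and fell by 0.93 ± 0.13 (SE, adjusted p = 5.14e-05, limma). No culture reached the lowest skin array. Aqp1 (-3.24), Plvap (-2.11), Ramp2 (-1.89) and Cd93 (-1.86) were the largest falls, and Cav1, which keratinocytes also express, rose by 1.17. The other of the 2 probe sets of Cd93 differed by 0.16. Of 20 smooth muscle and pericyte genes 13 fell, led by Rgs5, a pericyte marker, at -4.63, and 2 rose, Casq2 (2.33) and Mcam (1.26). Acta2, smooth muscle actin, differed by 0.14 ± 0.14 (SE, adjusted p = 0.442, limma). In the cultures 24 of the 29 endothelial genes averaged below the array median. When the dimmest 40% of genes were left out, dim list members included, 10 endothelial genes were called lower.

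Nerve genes gave no clear count. Of 20 members 6 fell and 3 rose, with a median of -0.16. Median centring gave 7 higher and 3 lower, where 4721 of all 12393 genes were higher and 1944 lower. Egr2, a factor of myelinating cells and an immediate-early gene, fell by 2.45 ± 0.32 (SE, adjusted p = 3.29e-05, limma), and Ncam1, a neural adhesion molecule, rose by 1.25. Mbp, myelin basic protein, had 8 probe sets that disagreed, with 1.30 in the brightest and -2.95, adjusted p = 1.09e-08, limma in the one of largest variance, so no direction is given for it.

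Pigment cell genes fell in 11 of 18 measured members and rose in 1, with a median of -0.84. Dct, an enzyme of melanin synthesis, measured 10.46, 10.41, 8.47, 8.27 and 8.11 in the cultures and 10.70, 11.03, 11.07, 10.65 and 10.84 in skin. The mixed-strain cultures came close to the lowest skin array and the FVB cultures lay well below both, with a difference between the kinds of culture of 2.15 ± 0.15 (SE, adjusted p = 5.07e-06, limma). Tyr, the tyrosinase, fell by 2.45 ± 0.39 (SE, adjusted p = 1.52e-04, limma) against skin and was higher in mixed-strain than FVB cultures by 1.92 ± 0.18 (SE, adjusted p = 3.30e-05, limma). The list mean was 7.15 in the mixed-strain cultures and 6.37 in the FVB cultures, against 7.35 to 7.71 in skin. FVB mice are albino, and the labels do not give the coat colour of the mixed mice.

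Immune cell genes were lower in culture. Of 40 macrophage genes 31 fell and the other 9 missed the threshold, with a median of -1.24. Ccl8 (-4.48), Lyz1 (-4.34), C1qa (-3.73), Lyz2 (-3.72) and C1qb (-3.58), a chemokine, lysozymes and complement chains, fell furthest. Of 23 genes of Langerhans cells and MHC class II 13 fell, led by H2-Aa (-4.63), Cd74 (-4.37), H2-Eb1 (-2.97) and H2-Ab1 (-2.80), which present antigen or guard the class II groove, and Epcam, which is an epithelial gene as well, was the member that rose. Epithelial centring left 8 members of this list called lower, and leaving out the dimmest 40% of genes left 6. Ptprc, the pan-leukocyte CD45, measured 3.75, 3.97, 3.87, 3.81 and 3.75 in the cultures and 7.21, 5.94, 5.74, 5.75 and 6.09 in skin and fell by 2.31 ± 0.23 (SE, adjusted p = 2.06e-06, limma). Every skin array was above every culture. Of 31 mast cell and lymphocyte genes 18 fell and the other 13 missed the threshold, and the mixed-strain cultures alone gave 10 lower, median centring 3 higher and 11 lower and leaving out the dimmest 40% of genes 11 lower. The mast cell proteases Cma1 (-1.87) and Cpa3 (-1.85) fell.

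**Figure D2:**
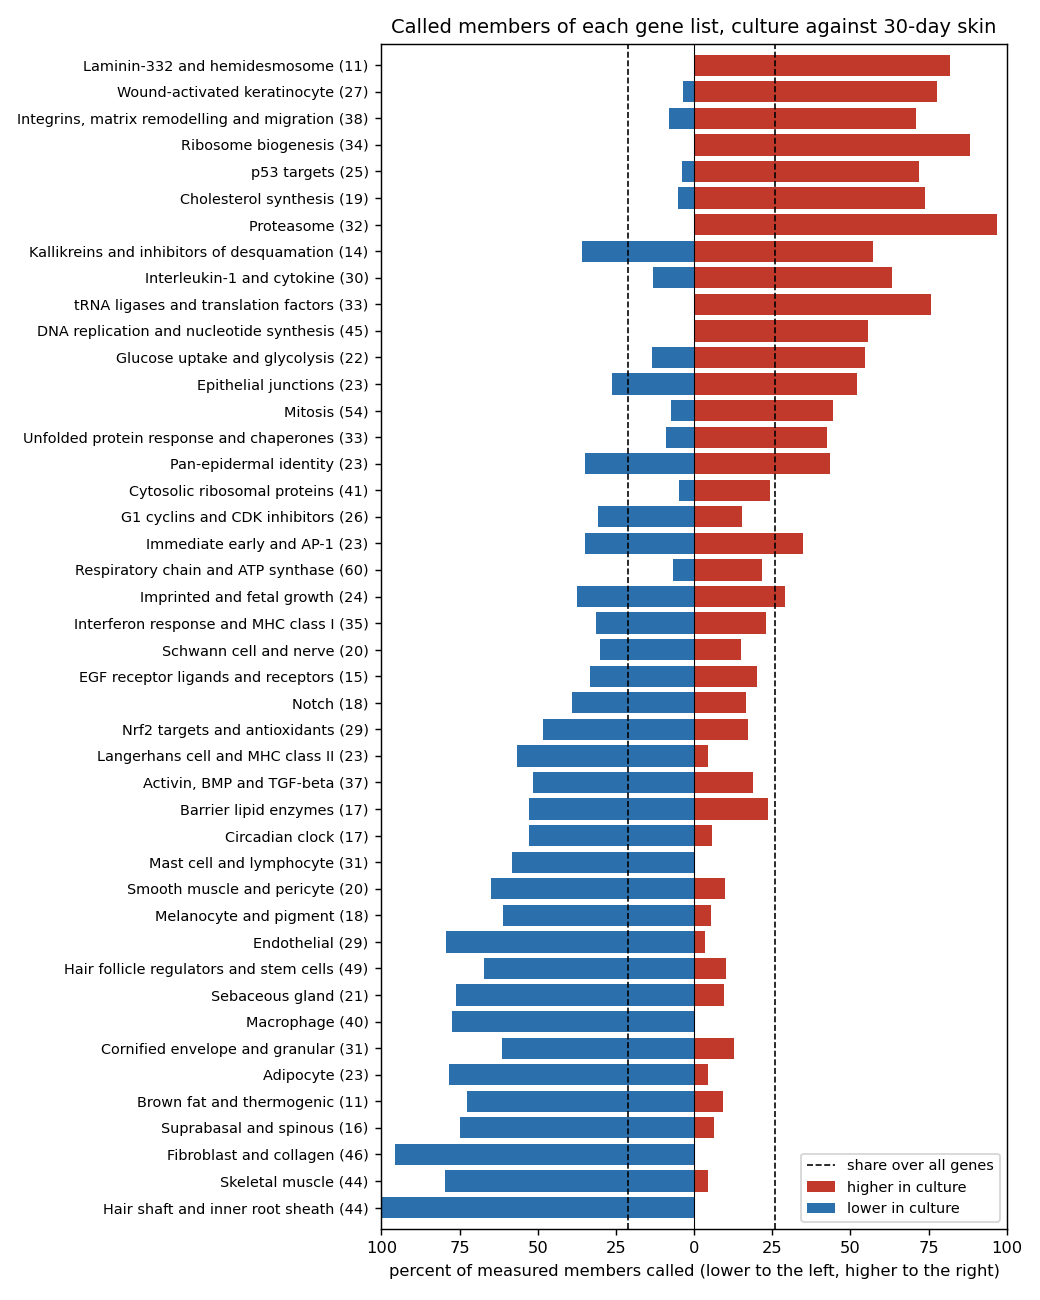
Share of the measured members of each of 44 gene lists called higher (right, red) or lower (left, blue) in culture than in 30-day skin at an adjusted p under 0.05, with the number of measured members beside each name. The dashed lines mark the shares over all 12393 genes, 25.9% higher and 21.2% lower, and the lists are ordered by their median difference, from the hair genes at the bottom to the hemidesmosome genes at the top.

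Epidermal differentiation genes were lower in the low-calcium cultures, with exceptions. Of 16 suprabasal genes 12 fell and 1 rose, with a median of -1.62. Krt10, the type I keratin of spinous cells, measured 7.73, 7.54, 8.91, 8.66 and 8.86 in the cultures and 12.10, 11.91, 11.87, 11.76 and 11.86 in skin and fell by 3.56 ± 0.24 (SE, adjusted p = 5.92e-08, limma). Krt1, its type II partner, measured 6.94, 7.35, 9.27, 9.49 and 9.56 in the cultures and 10.27, 9.97, 10.06, 9.99 and 9.99 in skin and fell by 1.53 ± 0.45 (SE, adjusted p = 0.0129, limma). Every culture was below every skin array for both, with the mixed-strain cultures the lowest. Averaging the close pairs of arrays ended the call for Krt1 (-1.23, adjusted p = 0.0737, limma). Mixed minus FVB cultures came to -1.17 ± 0.13 (SE, adjusted p = 1.31e-04, limma) for Krt10 and -2.29 ± 0.15 (SE, adjusted p = 2.86e-06, limma) for Krt1.

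Krt77, a suprabasal keratin, fell by 6.35 ± 0.08 (SE, adjusted p = 1.82e-14, limma), and Calml3, a calmodulin-like protein of epithelia, fell by 4.30 ± 0.12 (SE, adjusted p = 8.95e-12, limma). Asprv1, a protease that processes filaggrin, was the member that rose, by 0.87 ± 0.15 (SE, adjusted p = 3.56e-04, limma). Dmkn and Krtdap, secreted by differentiating keratinocytes, missed the threshold at 0.12 and 0.13, and in the mixed-strain cultures alone Krtdap was lower than skin (-0.53, adjusted p = 0.00907, limma).

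In the cornified envelope list 19 of 31 measured members fell and 4 rose, with a median of -1.41. Some of those that fell, Tchh among them, are also members of the hair list, so this count is not of the epidermis alone. Lor, the main envelope protein loricrin, measured 7.42, 7.52, 7.43, 7.35 and 7.47 in the cultures and 11.31, 11.06, 10.87, 10.77 and 10.64 in skin. The cultures were all below skin, and Lor fell by 3.49 ± 0.12 (SE, adjusted p = 4.47e-11, limma). Ivl, involucrin, fell by 1.96 ± 0.21 (SE, adjusted p = 3.77e-06, limma). Scel, sciellin (-3.77), and the late envelope gene Lce1b (-3.38) fell further. Flg, filaggrin, measured 6.53, 6.50, 6.65, 7.19 and 7.10 in the cultures and 10.23, 8.45, 8.34, 7.49 and 7.93 in skin and fell by 1.70 ± 0.39 (SE, adjusted p = 0.00268, limma). Skin replicate 1 was the highest of its group for Flg by more than 1 on the log2 scale.

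The 4 members that rose were all small proline-rich proteins, Sprr1b (2.34), Sprr2d (2.31), Sprr2h (2.08) and Sprr2i (0.70), cross-linked envelope precursors that are known to be induced under stress. Sprr1b measured 10.98, 10.95, 10.53, 11.05 and 10.96 in the cultures and 6.87, 8.85, 8.99, 8.92 and 9.13 in skin and rose by 2.34 ± 0.35 (SE, adjusted p = 8.33e-05, limma). The groups did not overlap. Sprr2 genes are near-identical, so single members are uncertain. The windows of the cornified list held TATAAA in 42.4% and TGANTCA, the AP-1 motif, in 33.3% of 33 windows, against 9.81% and 6.45% over all measured genes.

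Enzymes of barrier lipids moved both ways. The list had 4 members higher and 9 lower of 17, with a median of -0.31. Those that fell were Fa2h (-2.87), Cers4 (-2.78), Smpd1 (-2.62), Elovl4 (-1.82) and Acer1 (-1.69) and 4 others. Fa2h hydroxylates and Elovl4 elongates fatty acids, Cers4 joins them to sphingoid bases, Smpd1 releases ceramide from sphingomyelin and Acer1 is a ceramidase, which breaks ceramide down. Degs1, the desaturase that finishes ceramide, rose by 1.91 ± 0.09 (SE, adjusted p = 1.94e-09, limma). The other members that rose were Sptlc2 (1.04) and Sptlc1 (0.47), subunits of the first enzyme of sphingolipid synthesis, and Asah1 (0.53), another ceramidase. The call of Asah1 was lost without culture 1 (0.45, adjusted p = 0.0512, limma), culture 3 (0.49, adjusted p = 0.0512, limma), skin 2 (0.42, adjusted p = 0.0574, limma) or skin 3 (0.45, adjusted p = 0.0579, limma) and with the FVB cultures alone (0.37, adjusted p = 0.122, limma). The call of Sptlc1 was lost over the mean of its probe sets (0.16, adjusted p = 0.14, limma).

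Proteases of desquamation and their inhibitors also went in both directions, 8 higher and 5 lower of 14. Klk8, a kallikrein, rose by 2.76 ± 0.21 (SE, adjusted p = 1.58e-07, limma), and Klk10 by 1.01. The cathepsin inhibitor Cst6 fell by 3.39 ± 0.23 (SE, adjusted p = 6.42e-08, limma), the cathepsin Ctsc fell by 2.15 ± 0.18 (SE, adjusted p = 5.26e-07, limma) and the membrane protease Prss8 fell by 1.04 ± 0.16 (SE, adjusted p = 1.37e-04, limma). The mixed-strain cultures alone gave 5 higher and 6 lower.

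Junction genes split by kind. Of 23 members 12 rose and 6 fell. The falls were mostly connexins of gap junctions. Gjb2 measured 5.79, 6.26, 8.17, 8.34 and 8.26 in the cultures and 11.45, 12.18, 11.91, 12.02 and 12.01 in skin, and the cultures were all below skin with the mixed-strain ones the lowest. It fell by 4.55 ± 0.45 (SE, adjusted p = 2.13e-06, limma), and Gjb6 (-3.37), Gja1 (-1.55) and Gjb5 (-1.29) fell with it. Among claudins of tight junctions Cldn7, Cldn4 and Cldn3 rose by 2.21, 1.65 and 1.14, Cldn8 (-2.07) fell, and Cldn1 differed by -0.12 ± 0.09 (SE, adjusted p = 0.332, limma). The desmosomal genes Dsc3 (1.35) and Pkp2 (1.0) rose.

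Genes known from keratinocytes at wound edges were mostly higher in culture, with 21 of 27 members higher and 1 lower, and a median of 1.45. Krt16 measured 11.44, 11.70, 12.08, 12.13 and 12.35 in the cultures and 6.41, 6.89, 6.76, 7.34 and 7.38 in skin. All cultures were above all skin arrays, and Krt16, a keratin of activated epidermis, rose by 4.98 ± 0.20 (SE, adjusted p = 3.80e-10, limma), 31.7-fold. Its type II partners Krt6b and Krt6a rose by 4.01 ± 0.32 (SE, adjusted p = 2.52e-07, limma) and 2.69 ± 0.20 (SE, adjusted p = 1.23e-07, limma). Krt17 rose by 0.97. These keratins are also made in parts of the hair follicle.

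Stfa3, a cysteine protease inhibitor, rose by 4.74 ± 0.42 (SE, adjusted p = 8.03e-07, limma), and S100a9, a calcium-binding alarm protein, by 3.78 ± 0.34 (SE, adjusted p = 8.23e-07, limma). Serpinb2, an inhibitor of plasminogen activators, measured 10.67, 10.43, 10.43, 10.48 and 10.63 in the cultures and 6.62, 7.19, 6.65, 7.35 and 7.58 in skin and rose by 3.45 ± 0.17 (SE, adjusted p = 2.28e-09, limma). The lowest culture exceeded the highest skin array. Itgb6, an integrin of migrating keratinocytes, rose by 2.60 and the AP-1 factor Fosl1 by 1.36 ± 0.16 (SE, adjusted p = 9.92e-06, limma). Plat, tissue plasminogen activator, was the member that fell, by 0.72 ± 0.10 (SE, adjusted p = 5.15e-05, limma). Stfa3 belongs to a family of close copies and is uncertain as a single gene.

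Windows of this list held TGANTCA on either strand in 29.2% of 24, against 6.45% over all measured genes, from 19 of the 27 genes. The share was 30.8% of 13 windows in the suprabasal list and 33.3% of 33 in the cornified list, which fell in most members. Windows of the rising genes Serpinb2 and Sprr1b that hold the letters are shown as examples, with the match in capitals. They lie at chr1:107511302-107511362 on the plus strand for Serpinb2 and chr3:92438857-92438917 on the minus strand for Sprr1b.
Serpinb2: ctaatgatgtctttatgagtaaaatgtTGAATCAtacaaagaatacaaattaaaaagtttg
Sprr1b: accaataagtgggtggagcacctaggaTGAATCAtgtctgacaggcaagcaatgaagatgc
The match starts 94 bases before the start of Serpinb2 and 111 before that of Sprr1b. Binding of AP-1 was not measured.

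Genes of adhesion, matrix cleavage and the actin skeleton rose in 27 of 38 members and fell in 3, with a median of 0.85. Thbs1, the matrix protein thrombospondin, measured 10.56, 10.75, 10.09, 10.02 and 10.12 in the cultures and 5.63, 6.55, 6.56, 6.54 and 6.52 in skin. No skin array reached the lowest culture, and it rose by 3.95 ± 0.20 (SE, adjusted p = 2.34e-09, limma). Anxa3, an annexin, rose by 3.90 ± 0.10 (SE, adjusted p = 6.79e-12, limma), and the metalloproteases Adam8 and Mmp9 by 3.71 ± 0.14 (SE, adjusted p = 2.04e-10, limma) and 2.58 ± 0.19 (SE, adjusted p = 1.09e-07, limma). The members that fell were Vim (-1.89), Mmp3 (-1.31) and Itgb5 (-0.41), Itgb5 not in the mixed-strain cultures alone (-0.32, adjusted p = 0.103, limma). Fn1, fibronectin, was at -0.25 and missed the threshold.

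Cytokine genes gave 19 higher and 4 lower of 30, with a median of 0.52, and 9 higher when the dimmest 40% of genes were left out. Il1a, an interleukin stored in keratinocytes, measured 9.51, 9.10, 6.63, 6.97 and 7.08 in the cultures and 4.76, 4.86, 4.90, 4.87 and 4.63 in skin. The mixed-strain cultures stood above the FVB cultures by 2.41 ± 0.16 (SE, adjusted p = 2.86e-06, limma), and all were above skin. It rose by 3.06 ± 0.48 (SE, adjusted p = 1.32e-04, limma). Tslp, Cxcl16, Cxcl1 and Il33, all known from stressed epithelium, rose by 2.83, 2.82, 2.25 and 2.05. Il1r2, the decoy receptor of interleukin-1, fell by 2.70 ± 0.09 (SE, adjusted p = 4.00e-11, limma), and Cxcl14, a chemokine of resting epidermis, fell by 1.38 ± 0.25 (SE, adjusted p = 4.71e-04, limma).

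Other genes with the largest rises were outside the wound list. Ptgs2, the inducible cyclooxygenase, measured 9.91, 9.61, 8.68, 7.86 and 7.99 in the cultures and 4.50, 4.60, 4.86, 4.96 and 4.63 in skin and rose by 4.10 ± 0.34 (SE, adjusted p = 4.00e-07, limma). Its groups were fully separate. Bcl2l15, of the Bcl2 family, rose by 5.53 ± 0.17 (SE, adjusted p = 2.40e-11, limma), Bex1 by 5.36 ± 0.24 (SE, adjusted p = 8.91e-10, limma) and Slc15a3, a peptide transporter, by 4.37 ± 0.11 (SE, adjusted p = 2.36e-12, limma). Mbnl3 (3.61), Ppbp (3.32), Kcnk1 (3.15) and Prl8a9 (3.13) also stood among the 20 largest.

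Ligands of the EGF receptor moved apart. Epgn and Hbegf rose by 2.47 ± 0.15 (SE, adjusted p = 1.67e-08, limma) and 1.68 ± 0.15 (SE, adjusted p = 6.18e-07, limma), whereas Tgfa fell by 1.10 ± 0.18 (SE, adjusted p = 1.54e-04, limma), Btc fell by 0.99 ± 0.14 (SE, adjusted p = 4.47e-05, limma) and Ereg fell by 0.60 ± 0.13 (SE, adjusted p = 0.002, limma). Dusp6, a phosphatase induced by this pathway, had a difference of -1.05 and fell. The list had 3 members higher and 5 lower of 15, and 2 lower without the dimmest 40% of genes.

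Targets of p53 were higher in 18 of 25 members and lower in 1, with a median of 0.69. Pmaip1, the pro-death protein Noxa, measured 9.85, 9.88, 9.93, 10.01 and 10.10 in the cultures and 4.48, 4.78, 4.81, 4.97 and 4.85 in skin. Every culture exceeded every skin array, and Pmaip1 rose by 5.18 ± 0.10 (SE, adjusted p = 3.25e-13, limma). Plk2, a kinase, Mdm2, the ubiquitin ligase that degrades p53, Zmat3 and Ccng1 rose by 2.50, 1.98, 1.89 and 1.68. Cdkn1a, the cyclin kinase inhibitor p21, measured 10.10, 10.39, 10.28, 10.54 and 10.58 in the cultures and 9.59, 10.23, 10.25, 10.09 and 10.14 in skin, which overlapped, and its difference of 0.32 ± 0.13 (SE, adjusted p = 0.0705, limma) missed the threshold. Sesn1 fell by 1.83 ± 0.13 (SE, adjusted p = 8.74e-08, limma).

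**Figure D3:**
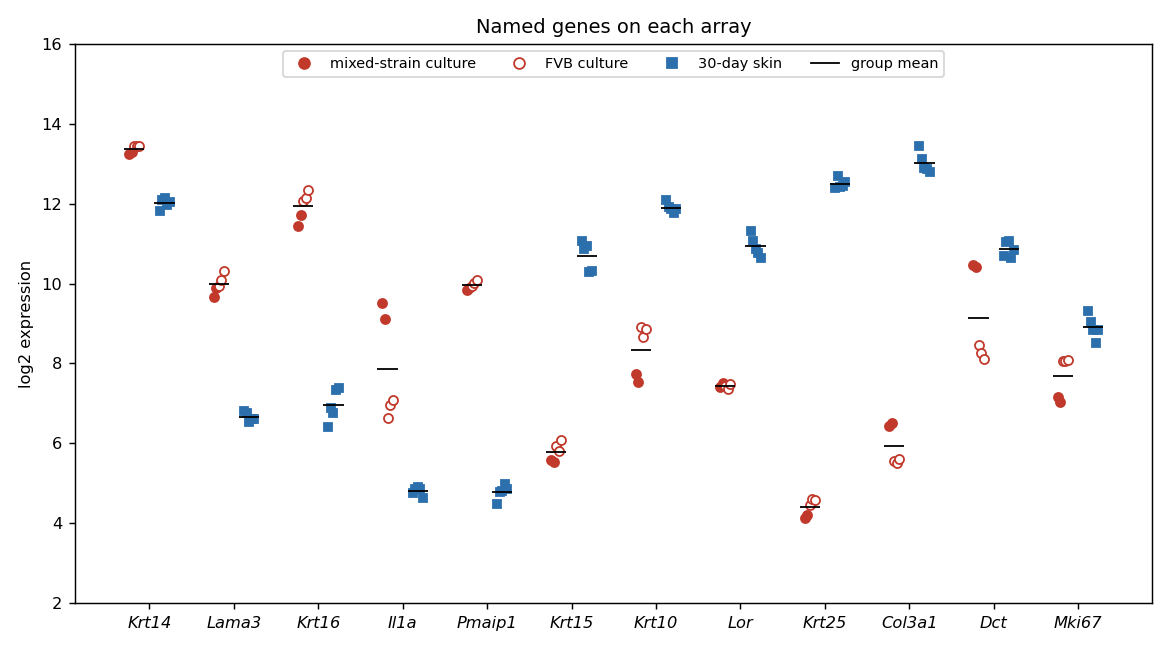
Log2 expression of 12 named genes on each of the 10 arrays, with mixed-strain cultures as filled circles, FVB cultures as open circles and 30-day skin as squares, and a bar at each group's mean. Krt14, Lama3, Krt16, Il1a and Pmaip1 are higher in every culture, Krt15, Krt10, Lor, Krt25, Col3a1 and Dct are higher in every skin array, and Mki67 is lowest in the mixed-strain cultures.

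Genes of the cell cycle were higher in part, and depended on the kind of culture. Of 45 DNA replication genes 25 rose and the other 20 missed the threshold, with a median of 0.48. The mixed-strain cultures alone gave 13 higher and 1 lower, and the FVB cultures alone 32 higher. The list mean was 7.01 in the mixed-strain cultures and 7.44 in the FVB cultures, against 6.67 to 6.85 in skin. Rrm2 and Rrm1, subunits of ribonucleotide reductase, rose by 1.49 ± 0.15 (SE, adjusted p = 3.01e-06, limma) and 1.27 ± 0.25 (SE, adjusted p = 8.35e-04, limma), the helicase subunit Mcm4 by 1.20 and Pcna, the sliding clamp, by 0.46 ± 0.12 (SE, adjusted p = 0.00458, limma). With the mixed-strain cultures alone Pcna missed the threshold (0.21, adjusted p = 0.167, limma).

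Of 54 mitosis genes 24 rose and 4 fell, with a median of 0.34, and the mixed-strain cultures alone gave 13 higher and 6 lower. Anln, anillin of the contractile ring, rose by 1.51 ± 0.12 (SE, adjusted p = 1.77e-07, limma), Kif20a by 1.24, Bub1, a checkpoint kinase, by 0.97 and Aurka by 0.96. Mki67, the proliferation marker Ki-67, went the other way. It measured 7.15, 7.03, 8.05, 8.05 and 8.09 in the cultures and 9.30, 9.03, 8.84, 8.52 and 8.83 in skin and fell by 1.23 ± 0.22 (SE, adjusted p = 4.55e-04, limma). The mixed-strain cultures were lowest and the FVB cultures lay nearer to skin, with a difference between them of -0.97 ± 0.18 (SE, adjusted p = 0.0047, limma). Top2a, the topoisomerase of dividing cells, differed from skin by -0.06 ± 0.16 (SE, adjusted p = 0.78, limma).

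CCAAT on either strand was in 76.9% of 52 windows of the mitosis genes and TTTGAA in 67.3%, against 37.1% and 12.9% over all measured genes. Windows of Bub1 and Aurka, at chr2:127831868-127831928 on the minus strand for Bub1 and chr2:172370571-172370631 on the minus strand for Aurka, are shown with the match nearest to the gene start in capitals because this feature is shared by most of the list.
Bub1: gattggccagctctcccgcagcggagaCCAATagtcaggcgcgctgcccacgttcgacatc
Aurka: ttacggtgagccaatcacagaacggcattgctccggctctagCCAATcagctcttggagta

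Regulators of the G1 phase gave 4 higher and 8 lower of 26. Median centring, which made more calls higher over all genes, gave 10 higher and 6 lower. Myc measured 8.06, 8.12, 8.62, 8.63 and 8.98 in the cultures and 6.84, 6.89, 6.96, 6.56 and 6.86 in skin and rose by 1.66 ± 0.16 (SE, adjusted p = 1.77e-06, limma). All cultures were above skin. Mycn, its relative, fell by 2.25 ± 0.12 (SE, adjusted p = 4.06e-09, limma), the inhibitors Cdkn1c (-1.65), Cdkn1b (-1.27) and Cdkn2c (-1.27) fell, and Cdkn2b, the inhibitor p15, rose by 1.05 ± 0.13 (SE, adjusted p = 1.68e-05, limma).

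Genes that build ribosomes and proteasomes rose nearly without exception, with small differences. Of 34 genes of ribosome biogenesis 30 rose and the other 4 missed the threshold, with a median of 0.78. Ddx21, a nucleolar helicase, rose by 1.37 ± 0.12 (SE, adjusted p = 6.18e-07, limma) and Nolc1 by 1.36 ± 0.15 (SE, adjusted p = 4.76e-06, limma). Of 32 proteasome subunits 31 rose and the other missed the threshold, with a median of 0.62. Psma7, of the catalytic core, rose most, by 0.97 ± 0.09 (SE, adjusted p = 1.68e-06, limma). Of 33 translation factors and tRNA ligases 25 rose, led by Eif6 (1.40), Nars (1.37), Iars (1.17) and Aars (1.11). The mixed-strain cultures alone gave fewer calls, 22 higher for ribosome biogenesis, 25 for the proteasome and 20 for translation factors and tRNA ligases.

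Cytosolic ribosomal proteins gave 10 higher and 2 lower of 41, with a median of 0.12. This count depended on the centring, with 27 members called higher after median centring and 16 after epithelial centring. With close pairs averaged only 6 members were called higher. Subunits of the respiratory chain and ATP synthase gave 13 higher and 4 lower of 60 with a median of -0.01. That balance turned to 8 higher and 12 lower with the mixed-strain cultures alone, and to 12 higher and 15 lower when arrays were normalised by quantiles again.

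Glycolytic genes rose in 12 of 22 members and fell in 3, with a median of 0.44. The mixed-strain cultures alone gave 8 higher and 3 lower, and the FVB cultures alone 15 higher and 3 lower. Slc2a1, the glucose transporter Glut1, measured 9.54, 9.49, 10.40, 10.37 and 10.27 in the cultures and 7.91, 7.04, 7.07, 5.95 and 6.32 in skin. Every culture was above every skin array, and it rose by 3.16 ± 0.32 (SE, adjusted p = 2.58e-06, limma), 8.92-fold. The enzymes Pfkl, Pkm, Pgam1 and Pgk1 rose by 1.49, 1.46, 1.35 and 1.24. Pfkm, the muscle phosphofructokinase, and Aldoa, an aldolase abundant in muscle, fell, with differences of -2.38 ± 0.16 (SE, adjusted p = 5.08e-08, limma) and -0.68 ± 0.12 (SE, adjusted p = 2.75e-04, limma), beside the muscle list with a mean of 5.18 to 5.39 in the cultures and 7.85 to 8.38 in skin. The part of muscle in these falls was not tested.

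Enzymes of cholesterol synthesis rose in 14 of 19 members and fell in 1, with a median of 0.65. Sc5d, Fdps, Fdft1 and Msmo1, which act at steps from the making of farnesyl diphosphate to the late changes of the sterol, rose by 1.35 ± 0.13 (SE, adjusted p = 1.31e-06, limma), 1.12, 1.12 and 1.0. The other of the 2 probe sets of Sc5d differed by -0.06, and 2 of the 4 of Fdft1 were of opposite sign, the furthest at -0.21. Hmgcs1, near the start of the pathway, differed by 0.21 ± 0.13 (SE, adjusted p = 0.212, limma). Of 18 windows from 15 of these genes, 1 (5.56%) held TCACNCCAC, the letters of a sterol regulatory element, against 1.22% of all. A share that rests on 1 window is not read further. CCAAT was in 75% of the windows of the clock list and 76.5% of those of the unfolded protein and heat shock list. The 18 windows of the cholesterol list held CCAAT in 83.3%, against 37.1% of all. Those of Sc5d and Msmo1 are shown for that reason, from chr9:42264301-42264361 on the minus strand for Sc5d and chr8:64733600-64733660 on the minus strand for Msmo1, with the match in capitals, which in Sc5d is the reverse complement.
Sc5d: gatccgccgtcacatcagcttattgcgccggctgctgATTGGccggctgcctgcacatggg
Msmo1: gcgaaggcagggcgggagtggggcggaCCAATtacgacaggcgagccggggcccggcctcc

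Stress genes differed by pathway. In the list of the unfolded protein and heat shock responses 14 of 33 rose and 3 fell, with Asns, asparagine synthetase, at 2.20 ± 0.17 (SE, adjusted p = 1.63e-07, limma), Ddit3 at 0.96 and Trib3 at 0.75, while Chac1 fell by 1.95 ± 0.28 (SE, adjusted p = 6.30e-05, limma). Hspa5, the chaperone BiP, differed by 0.14 ± 0.12 (SE, adjusted p = 0.355, limma). Without skin replicate 1 this list had 5 members lower. Antioxidant genes gave 5 higher and 14 lower of 29, with a median of -0.23. Gpx3, a secreted glutathione peroxidase, and the metallothioneins Mt2 and Mt1 fell, with differences of -4.01 ± 0.24 (SE, adjusted p = 1.78e-08, limma), -3.65 ± 0.14 (SE, adjusted p = 2.22e-10, limma) and -2.81 ± 0.28 (SE, adjusted p = 2.13e-06, limma). The glutathione transferases Gsta4 and Gsto1 rose by 2.73 ± 0.17 (SE, adjusted p = 2.07e-08, limma) and 2.63 ± 0.28 (SE, adjusted p = 5.08e-06, limma).

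Immediate-early genes split evenly, 8 higher and 8 lower of 23, and the mixed-strain cultures alone gave 5 higher and 7 lower. Ier3, Fosl1 and Klf6 rose by 2.10, 1.36 and 1.20. Fos fell by 0.96 ± 0.16 (SE, adjusted p = 1.76e-04, limma), and Egr1 (-1.15), Egr2 (-2.45) and Klf2 (-1.31) fell as well. In the clock list 9 of 17 fell, with Rora at -2.10, Nfil3 at -1.0, Dbp at -0.90, and Bhlhe40, a repressor of the clock, was the member that rose, by 2.37 ± 0.12 (SE, adjusted p = 2.19e-09, limma). Epithelial centring left 5 clock genes called lower, and the mixed-strain cultures alone also gave 5. Dbp missed the threshold with the mixed-strain cultures alone (-0.91, adjusted p = 0.0986, limma), and times of day are not given in the labels.

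Signalling genes of the TGF-beta, activin and BMP families gave 7 higher and 19 lower of 37, with a median of -0.30. Inhba, the activin A subunit, rose by 2.82 ± 0.13 (SE, adjusted p = 1.57e-09, limma) together with its antagonist Fst. Fstl1, the latent TGF-beta binding proteins Ltbp3 and Ltbp4, and Smad6, an inhibitor of BMP signalling, fell, with differences of -3.90 ± 0.38 (SE, adjusted p = 1.80e-06, limma), -2.71, -2.24 and -2.18. In the Notch list 3 rose and 7 fell of 18, with the ligand Jag1 at 1.63 ± 0.22 (SE, adjusted p = 3.09e-05, limma) and the ligand Jag2 at -0.78. The target Nrarp fell by 2.09 ± 0.14 (SE, adjusted p = 4.75e-08, limma), and Heyl (-1.66) and Notch3 (-1.70), also known from vessel walls, fell too. Median centring, which made more calls higher over all genes, gave 6 higher and 6 lower for this list.

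Imprinted and fetal growth genes gave 7 higher and 9 lower of 24. Median centring, which made more calls higher over all genes, gave 11 higher and 8 lower. Without the dimmest 40% of genes, dim list members included, 5 were lower. Igf2bp3 and Hmga2, known from fetal and newborn tissue, rose by 2.77 ± 0.11 (SE, adjusted p = 2.46e-10, limma) and 2.32 ± 0.17 (SE, adjusted p = 1.08e-07, limma), and Igf2bp1 and Peg3 by 1.10 and 1.29. Igf2, the fetal growth factor, measured 7.36, 7.42, 7.36, 7.64 and 7.39 in the cultures and 7.39, 7.16, 7.17, 6.83 and 6.64 in skin and rose by 0.40 ± 0.13 (SE, adjusted p = 0.0237, limma). Skin replicate 1 lay within the cultures, and the call was lost without culture 4, skin 4 or skin 5, at 0.34, adjusted p = 0.0609, limma, 0.34, adjusted p = 0.0615, limma and 0.30, adjusted p = 0.059, limma. It was also lost over the mean of its probe sets (0.14, adjusted p = 0.283, limma), whose other member had a difference of -0.12, with close pairs averaged (0.35, adjusted p = 0.108, limma), with a strain term (0.35, adjusted p = 0.127, limma), with the mixed-strain cultures alone (0.35, adjusted p = 0.166, limma) and without moderated variances (0.40, adjusted p = 0.0545, limma). Cdkn1c (-1.65), Meg3 (-1.33) and Grb10 (-1.33) fell. The cultures came from newborn and the skin from 30-day mice, so age and culture cannot be told apart here.

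Interferon and MHC class I genes gave 8 higher and 11 lower of 35, and every centring tried turned the balance, to 12 higher and 7 lower on the median. The same centrings made more calls higher over all genes. Usp18, an interferon-induced protease, rose by 2.16 ± 0.09 (SE, adjusted p = 5.98e-10, limma), and Ifi35 and Ifih1 by 1.38 and 1.38. Ifi27l2a fell by 2.83 ± 0.22 (SE, adjusted p = 2.41e-07, limma), and the immunoproteasome subunits Psmb9 (-1.09) and Psmb8 (-0.85) fell. Of B2m and H2-D1, class I chains, neither passed the threshold, at -0.23 and -0.17.

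**Figure D4:**
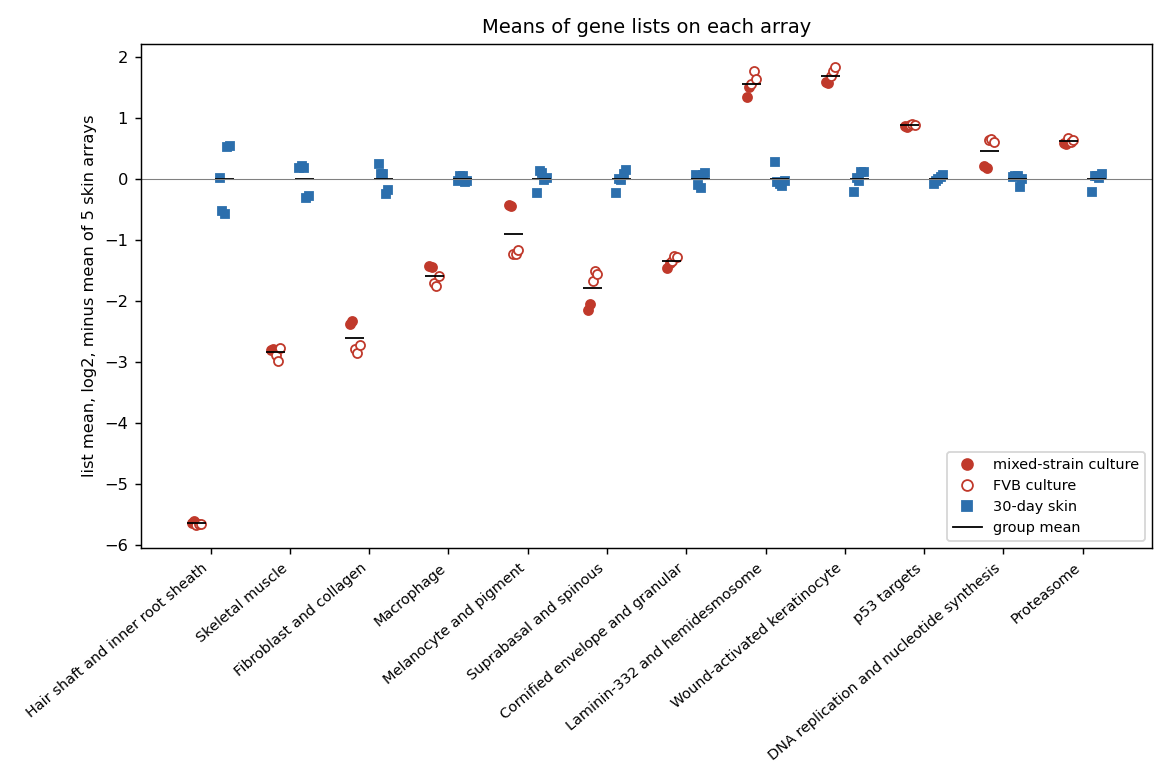
Mean log2 expression over the members of 12 gene lists on each of the 10 arrays, less the mean of the 5 skin arrays, with mixed-strain cultures as filled circles, FVB cultures as open circles and skin as squares. The hair, muscle and fibroblast lists are lower in every culture, the hemidesmosome and wound lists higher, and the melanocyte list lies apart between the 2 kinds of culture.

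The 2 kinds of culture were compared with each other because they were set against the same mixed-strain skin. Of all genes 1077 (8.69%) differed between mixed-strain and FVB cultures, 348 higher in the mixed and 729 higher in the FVB cultures. This count rested on the pair of mixed-strain cultures, since it was 216 without culture 1 and 321 without culture 2. It was 611 without culture 4 and 1713 without skin replicate 1. Of the genes called at 2-fold or more against skin, 240 of 1526 also differed between the kinds of culture. A strain term in the fit, estimated from the cultures and applied to skin, left 2637 genes higher and 2375 lower.

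The largest of these splits touched genes described above. Il33, an alarm cytokine, measured 8.14, 8.0, 5.75, 5.92 and 5.51 in the cultures and 4.99, 4.65, 4.44, 4.41 and 4.60 in skin. All cultures were above skin, and the mixed-strain ones were the highest by 2.35 ± 0.17 (SE, adjusted p = 6.23e-06, limma). Gjb2, Krt1 and Krt10 were higher in FVB cultures, and Il1a, Dct and Tyr in mixed-strain cultures. The list means that differed most between the kinds of culture were the melanocyte list, at 7.15 in the mixed-strain cultures and 6.37 in the FVB cultures, the suprabasal list, at 7.64 in the mixed-strain cultures and 8.15 in the FVB cultures, the fibroblast list, at 6.30 in the mixed-strain cultures and 5.86 in the FVB cultures, and the DNA replication list, at 7.01 in the mixed-strain cultures and 7.44 in the FVB cultures. The 3' over 5' gap of the actin probe sets was 0.21 and 0.35 in the mixed-strain and 0.56 to 0.74 in the FVB cultures. Strain, culture batch and RNA quality cannot be told apart with these samples.

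**Figure D5:**
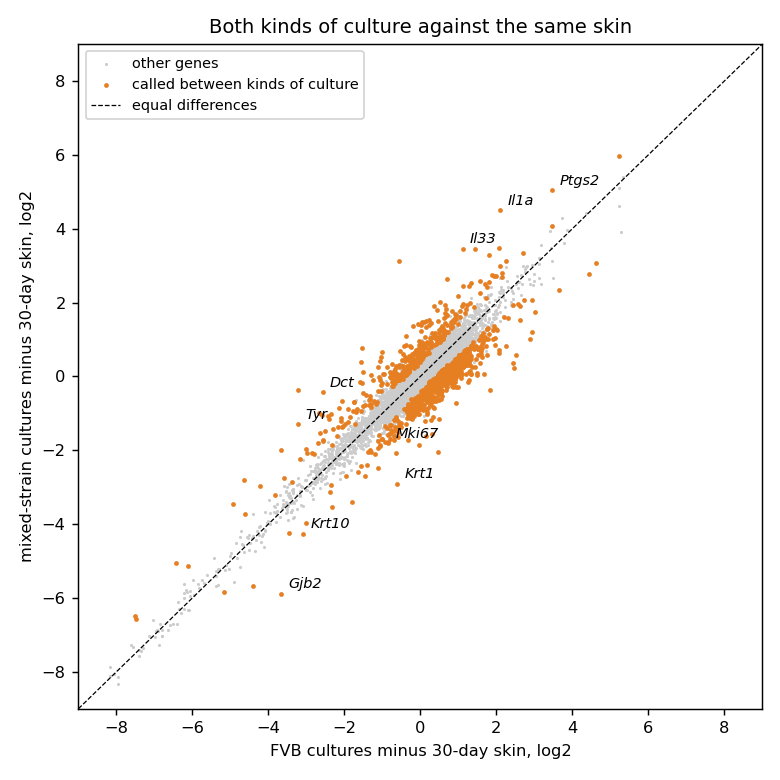
Difference from the same 5 arrays of 30-day skin for each of the 12393 genes in FVB cultures (horizontal axis, 3 arrays) and in mixed-strain cultures (vertical axis, 2 arrays), on the log2 scale. Orange points are the 1077 genes called different between the kinds of culture; both axes share the skin arrays, so the overall slope is no separate result.

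Skin arrays also varied among themselves. The widest spread lay in keratin-associated proteins, chosen here after their values were seen. Krtap19-4 measured 9.97, 7.65, 7.69, 10.75 and 10.87 in skin replicates 1 to 5, and Krtap5-2 measured 10.92, 7.39, 7.67, 9.51 and 9.48. Replicates 2 and 3 were the lowest for both. The mean of the hair list was nonetheless at least 10.12 in every skin array and at most 5.08 in any culture. Without skin replicate 1 the fit called 3185 genes higher and 2578 lower.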

How the data were processed

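Each of the 10 Affymetrix arrays held the RNA of 1 sample, and sample titles gave the groups. The values are log2 expression as deposited, summarised by RMA per the submitters' processing notes, with version and settings not given in the sources used here. RMA forces the arrays onto a common distribution of values, and skin and culture differ in cell makeup. Values lay between 2.89 and 13.59, and the number of arrays limits the precision.

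Among the 22690 probe sets were 64 controls, and 20380 had 1 gene symbol in the platform annotation, 691 several and 1555 none. A gene took its brightest probe set (mean over the 10 arrays), so 12393 genes were tested and 4956 of them had a choice of probe sets. The test was limma's (version 3.58.1, R 4.3.3), two-sided, on a mean per group, with adjusted p-values by Benjamini-Hochberg across those genes and calls below 0.05. A second model with 3 means set mixed-strain against FVB cultures. In simulated data for culture against 30-day skin, 67 genes were given a log2 change of 0.5, 67 a change of 1 and 66 a change of 2. The recovery was 65.7% at 0.5, 95.5% at 1 and 100% at 2. Far more genes were called in the measured data, and adjusted p-values depend on that number, so these rates need not hold there.

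Sides and the 44 gene lists were chosen with earlier results of these data known, so lists carry counts and medians without a test. Genes could be named if among the 20 largest called differences in a direction with no overlap of arrays, among 5 called members of a list in a direction or 3 that missed the threshold, or fixed by name (1 of these was not measured). A part of them is named. Promoter windows are RefSeq's for GRCm38.p6, matched by symbol. The alternatives concerned normalisation, centring, dim genes, probe sets, variances, thresholds, strain, a replicate block, and arrays left out or averaged. Averaged pairs, and all alternatives for the strain comparison, were added after seeing the data. The 2 arrays of newborn skin entered an alternative fit only. Tables and drawings came from Python 3.11.15 with pandas 2.3.3, numpy 2.4.6 and, for drawings, matplotlib 3.10.9.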

Additional observations from a re-analysis of the deposited data

Results flagged for a closer look

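A sample was singled out where the highest or lowest of the 5 arrays of a group lay apart from its nearest neighbour by a gap that, divided by the range of the group, exceeded Dixon's critical value of 0.71. This happened in 46 of 616 tests of gene values, list means and control probe sets (7.47%), where chance gives about 1 in 20, and 32 of them concerned skin replicate 1. Among the control probe sets, its gap between 3' and 5' probe sets was 1.74 for actin and 0.71 for Gapdh, and its 18S ribosomal RNA signal was 8.16. The 18S signal of culture 5 was 6.35. The genes for which skin replicate 1 stood apart in its group were Cdkn1a at 9.59, Cldn8 at 6.77, Cst6 at 11.76, Dlx3 at 8.97, Dsc3 at 5.35, Elovl6 at 10.90, Ereg at 5.60, Fn1 at 10.02, Gjb6 at 7.38, Ivl at 6.84, Klk8 at 8.53, Krt17 at 10.73, Krt27 at 11.80, Krt79 at 11.18, Ltbp4 at 7.97, Ptprc at 7.21, Rrm1 at 6.87, Sfn at 9.65, Sprr1b at 6.87, Sprr2d at 5.23, Sprr2h at 6.89, Sptlc1 at 8.02, Stfa3 at 6.88 and Thbs1 at 5.63. List means for which it stood apart were Laminin-332 and hemidesmosome at 8.27, Epithelial junctions at 7.82, Sebaceous gland at 8.27, Proteasome at 9.05 and Imprinted and fetal growth at 6.53. Other arrays stood apart for Bcl2l15 (4.77, skin replicate 4), Cav1 (10.71, culture 5), Cd34 (4.58, culture 5), Col1a1 (7.51, culture 2), Eif6 (9.38, skin replicate 4), Ereg (5.07, culture 3), Igf2 (7.64, culture 4), Krtap15 (4.43, culture 4), Slc15a3 (8.75, culture 5) and Sprr1b (10.53, culture 3), and in list means for Sebaceous gland (6.84, culture 2), Cytosolic ribosomal proteins (11.47, culture 5) and Nrf2 targets and antioxidants (8.22, skin replicate 5). For skin replicate 1, the fit without it is given under the processing.

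Named genes whose difference from skin was not the same in mixed-strain and FVB cultures, by limma over all genes at an adjusted p under 0.05, numbered 58. Values are mixed minus FVB on the log2 scale. Higher in the mixed-strain cultures were Acta1 at 0.98, Acta2 at 0.53, Adam8 at 0.61, Bcl2l15 at 0.74, Cdkn2b at 0.53, Cldn3 at 1.13, Col1a2 at 1.36, Col3a1 at 0.92, Cxcl1 at 0.78, Dct at 2.15, Fabp4 at 1.03, Fstl1 at 1.83, Grb10 at 1.05, Gsto1 at 1.40, H2-Ab1 at 0.92, Ier3 at 0.77, Il1a at 2.41, Il33 at 2.35, Itgb6 at 0.89, Lyz1 at 1.49, Lyz2 at 1.27, Mcam at 0.57, Mdm2 at 1.01, Ptgs2 at 1.58, Tyr at 1.92 and Vim at 1.37. Lower in them were Casq2 at -0.72, Chac1 at -1.25, Cst6 at -0.95, Dusp6 at -0.93, Egr1 at -0.89, Egr2 at -1.59, Ehf at -0.87, Gjb2 at -2.23, Grhl1 at -0.72, H2-D1 at -0.88, Krt1 at -2.29, Krt10 at -1.17, Krt6b at -1.55, Krt79 at -0.74, Krtdap at -1.09, Mcm4 at -0.45, Mki67 at -0.97, Mmp9 at -0.86, Mt1 at -1.22, Myc at -0.65, Nars at -0.61, Nfil3 at -1.05, Nolc1 at -0.55, Pcna at -0.42, Prl8a9 at -1.30, S100a9 at -1.68, Scel at -0.80, Sox9 at -0.74, Tchh at -0.66, Top2a at -0.63, Trib3 at -0.54 and Trp63 at -0.70. Strain, batch and RNA quality cannot be told apart for these genes.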

How the results depend on the processing

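Leaving out 1 array at a time gave 2968 to 3205 genes higher, 2424 to 2585 lower, 5414 to 5763 in all, 562 to 630 at least 2-fold higher and 922 to 946 at least 2-fold lower. Without skin replicate 1 no list count of higher genes moved by more than 5 and none of lower genes by more than 2. Among the other alternatives, the test against a difference of 1 on the log2 scale kept 206 genes higher and 564 lower, 770 in all, and leaving out the dimmest 40% of genes gave 1746 lower, with fewer genes tested. The other counts stayed within 1.5 times the reported ones. The difference between mixed-strain and FVB cultures gave 216 to 1713 genes over the arrays left out in turn, and with 1 mixed-strain culture its spread was assumed to be that of the other arrays. Of 261 named genes 106 had several probe sets, and 15 had one of opposite sign to the one used. For Mbp and Tpm2 the opposite difference was beyond 1. The rest were Cd93, Cldn1, Fdft1, Fn1, Grb10, H2-D1, Igf2, Ncam1, Nolc1, Sc5d, Sptlc1, Top2a and Trp63. Of 244 named genes that were called, 2 lost the call in some fit with 1 array left out, 6 with the strain covariate and 6 with the mixed-strain cultures alone. Differences of named genes that changed sign were these, and the cause was not tested. Acta2 was at -0.075 with FVB cultures alone. Cldn1 was at 0.028 after median centring, 0.30 in the probe set of largest variance and 0.053 over the mean of probe sets. Dmkn was at -0.15 with the strain covariate and -0.15 with mixed-strain cultures alone. Fn1 was at 0.025 over the mean of probe sets. H2-D1 was at 0.18 with FVB cultures alone. Krtdap was at -0.53 with the strain covariate, -0.53 with mixed-strain cultures alone and -0.0082 with array weights. Mbp was at -2.95 in the probe set of largest variance and -0.92 over the mean of probe sets. Top2a was at 0.19 with FVB cultures alone, 0.084 after median centring, 0.035 after epithelial centring, 0.025 over the mean of probe sets, 0.030 with cultures 1 and 2 averaged and 0.034 with close pairs averaged. Tpm2 was at -2.53 in the probe set of largest variance and -0.51 over the mean of probe sets. Ucp1 was at 0.13 after quantile normalisation, 0.13 after median centring and 0.085 after epithelial centring. With 1 array left out Krtdap ran from -0.011 to 0.30. With 1 array left out Top2a ran from -0.16 to 0.037. With 1 array left out Ucp1 ran from -0.052 to 0.033.

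Cultures and skin samples share the replicate numbers 1 to 5, but deviations of same-numbered arrays from their group means did not go together (correlations of -0.11, -0.03, -0.09, -0.28 and -0.14), and 0 of 5 cultures correlated best with the skin array of their own number. With the replicate number as a block, 5293 genes were called, 2935 higher and 2358 lower. The number of arrays limits the precision, and without a detection call a gene near the bottom of the scale in skin or culture may be at background there, so its difference may be larger than printed. Age, culture and cell makeup change together, and the labels do not tie skin samples to animals.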
